A study of Arabidopsis thaliana with 4 samples.

Results

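The difference between the heat responses of the genotypes was measured row by row in Arabidopsis thaliana seedlings, as the heat difference in a line overexpressing the microRNA miR164 (miR164OE) minus the heat difference in wild type (WT). Each heat difference was log2(FPKM + 1) in the heat library minus log2(FPKM + 1) in the control library, where FPKM is the fragment number divided by transcript length and by library size. A row of the deposited table is a gene code with 1 value per library. Rows were kept where their 4 values averaged 20 FPKM or more and none was 0, and where the locus range spanned at least 300 bases. Of 32823 rows, 2507 met the mean, 2212 of these had no 0, and 2202 remained. These 2202 rows comprised 1434 protein-coding genes, 746 noncoding RNAs, 19 rows encoded in the mitochondrion and 3 in the plastid.

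The study examined the transcriptomes of WT and miR164OE seedlings of ecotype Col-0 with and without heat, with 1 library in each of the 4 groups. All plants grew at 22 °C with 16 h of light, and the heat treatment was 35 °C for 5 days, begun on seedlings 5 days old. The age of the control seedlings at harvest is not given in the labels, and neither is the promoter of the miR164 transgene nor the number of transgenic lines. With 1 library per group there was no replicate spread and no test. Every difference below compares libraries and is called by its size alone, at 1 or more on the log2 scale (2-fold). Where a gene's values are given as a pair, the control library comes first, then the heat library. Whole seedlings were used, so fewer cells of a type and less RNA per cell cannot be told apart.

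miR164 pairs with the transcripts of several NAC transcription factors and directs their cleavage, and through them it is known for roles in organ boundaries, lateral roots and leaf ageing. Prolonged warmth is known to induce heat shock proteins, which keep other proteins folded, and to lower the expression of photosynthesis genes in seedlings. A difference of heat responses is high where heat was followed by a larger increase or a smaller decrease in miR164OE than in WT, and low in the reverse case.

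The microRNA and its site in NAC1 are printed because NAC1, a NAC factor known for lateral root development, was the sole gene of the miR164 target list among the 2202 rows. The microRNA is encoded at chr2:19520770-19520790 on the plus strand and the site lies at chr1:20947142-20947162 on the minus strand, in the RefSeq assembly TAIR10.1. Capitals mark bases 2 to 8 of the microRNA, its seed, and the bases of the site that face them. The site differs from the full complement of miR164a at 2 positions, both outside the seed.
miR164a: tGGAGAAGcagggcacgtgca
NAC1: agcacgtaccctgCTTCTCCa

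NAC1 (chromosome 1, 20946571 to 20949281, minus strand) had 5.43 FPKM without and 38.3 with heat in WT, and 11.0 without and 27.2 with heat in miR164OE. Both heat libraries were above both control libraries, and WT held the lowest and the highest value. The heat difference was 2.61 in WT and 1.23 in miR164OE, so that the difference of heat responses was -1.38. The mean of NAC1 was 20.48 FPKM, just above the row minimum. Its WT heat value both lifted it past that minimum and lowered its difference, so its place among the rows is partly set by the minimum. The counting error of the difference was 0.71 (standard error, log2 scale) at an estimated 7.13 fragments in the smallest library. Inside NAC1 on the plus strand lies the noncoding row AT1G08087 (20948161 to 20948969), which does not reach the miR164 site. That row was listed at 35.9 then 96.2 FPKM in WT and at 49.2 then 65.7 in miR164OE, with heat differences of 1.39 and 0.41 and a difference of -0.99. The row of NAC1 and the row inside it thus had the same order of the 4 libraries on opposite strands. CUC1, CUC2, NAC080, NAC100 and the 3 miR164 precursor rows were listed at 0 throughout and give no check of the genotype labels. ORE1, a NAC factor that promotes leaf ageing, had 2.73 then 11.2 FPKM in WT and 0 then 1.48 in miR164OE, under the row minimum.

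Over the 2202 rows the difference of heat responses had a median of -0.16, with quartiles at -0.62 and 0.31. In all, 197 rows (8.95%) were at least 1 higher in miR164OE and 272 (12.4%) at least 1 lower, 21.3% in either direction. The heat differences of the genotypes themselves had standard deviations over rows of 1.43 in WT and 1.41 in miR164OE, against 0.94 for their difference. They correlated across rows with Pearson's r = 0.78 and Spearman's rho = 0.74, where rows share their libraries and neighbouring genes can share fragments. WT heat was at least 1 above WT control in 20.5% of the rows and at least 1 below in 19.9%, and in miR164OE these shares were 16.4% and 22.3%. The balance of higher and lower rows moved with the scaling of the libraries. As deposited, 42.0% of the rows past 1 in either direction were higher, against 56.9% with the nuclear rows of each library scaled to 1 common total and 56.7% after median ratio scaling, which moved the median to -0.0012 and 0.0026. Relative to the median of all 2202 rows, 252 rows (11.4%) were higher and 191 (8.67%) lower. Values below are as deposited, and a row's value relative to that median is larger by 0.16.

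**Figure D1:**
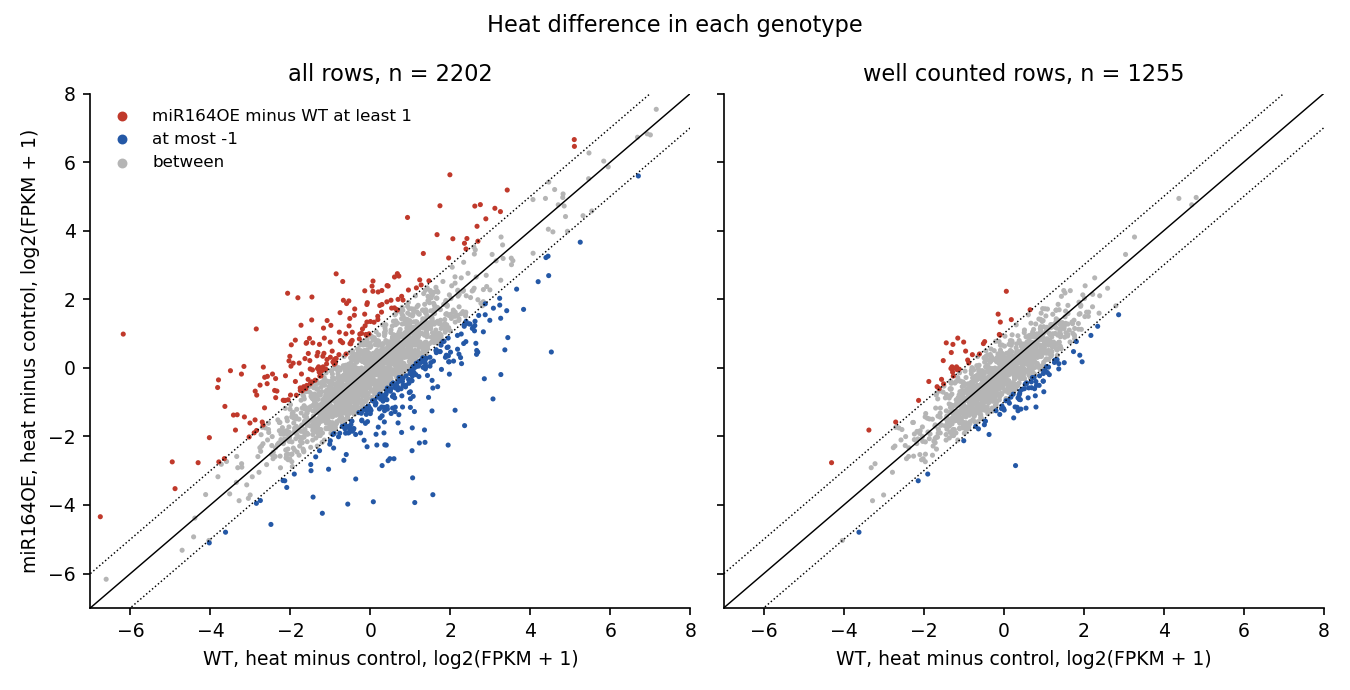
Heat minus control on log2(FPKM + 1) in WT (x axis) and miR164OE (y axis), 1 point per row, for all 2202 rows and for the 1255 well counted ones. The solid line marks equal heat differences and the dotted lines a difference of 1; most points lie between the dotted lines, and of the well counted rows 37 lie above and 75 below.

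Among the 197 higher rows, the commonest pattern was a decrease in WT with a change of less than 2-fold in either direction in miR164OE. In it were 75 rows at least 1 lower after heat in WT and within 1 in miR164OE. A further 49 were within 1 in WT and at least 1 higher in miR164OE, 23 were higher in both genotypes, 20 lower in both, and 22 within 1 in both. Only 8 were at least 1 lower in WT and at least 1 higher in miR164OE. Among the 272 lower rows, 81 were higher after heat in WT alone, 78 lower after heat in miR164OE alone, 29 higher in both, 18 lower in both, 52 within 1 in both, and 14 higher in WT and lower in miR164OE. Opposite responses past 1 in both genotypes were thus a minority in either direction. Changes of sign with a smaller heat difference are not in that count. The 22 and 52 rows within 1 in both genotypes reached their difference by opposite signs, and the rows past 1 in 1 genotype alone can hold either case.

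A difference of heat responses holds 4 values, and either the control or the heat libraries can set it. Of the 197 higher rows, 82 had a control value at least 1 lower in miR164OE than in WT without a heat value at least 1 higher. The heat libraries alone differed by 1 in 47, both did in 15, and 53 reached the difference with neither past 1. Of the 272 lower rows, these counts were 72, 63, 20 and 117. Over all 2202 rows, miR164OE control was at least 1 above WT control in 5.77% and below in 5.95% (11.7% in either direction), and miR164OE heat was above WT heat in 4.13% and below in 5.31% (9.45%).

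The share of rows past 1 was lower where the library with the fewest fragments held more of them. Fragment numbers are not recorded in FPKM and were estimated from the FPKM worth of 1 fragment, about 1.985 then 1.78 FPKM on 1 kb of exon in WT and 1.955 then 1.285 in miR164OE. Of 163 rows with under 5 estimated fragments in the library with the fewest, 56.4% were past 1 in either direction. This share was 43.2% at 5 to 10 fragments, 25.1% at 10 to 20, 15.2% at 20 to 50, 8.46% at 50 to 100 and 2.85% among 491 rows with at least 100. The library with the fewest fragments is 1 of the 4 that form the difference. A large change can thus itself place a row among those with few fragments, and the well counted rows defined below carry the same limit. By mean FPKM, the share was 27.3% at 20 to 50 FPKM, 23.4% at 50 to 200, 14.4% at 200 to 1000 and 5.61% from 1000 upwards. The locus range is a range of overlapping genes and not an exon length, and 196 rows had under 300 exon bases, of which 40.3% were past 1. Well counted rows, defined after the values were seen as rows with at least 300 exon bases and at least 20 estimated fragments in each library, numbered 1255. Of these, 37 (2.95%) were higher and 75 (5.98%) lower, 8.92% in either direction, with a median of -0.18 and r = 0.84 between the heat differences of the genotypes. Their median counting error was 0.29, against 0.43 over all rows that allowed an estimate. Over the 10488 rows that average 1 FPKM or more, 27.7% were higher and 22.3% lower.

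**Figure D2:**
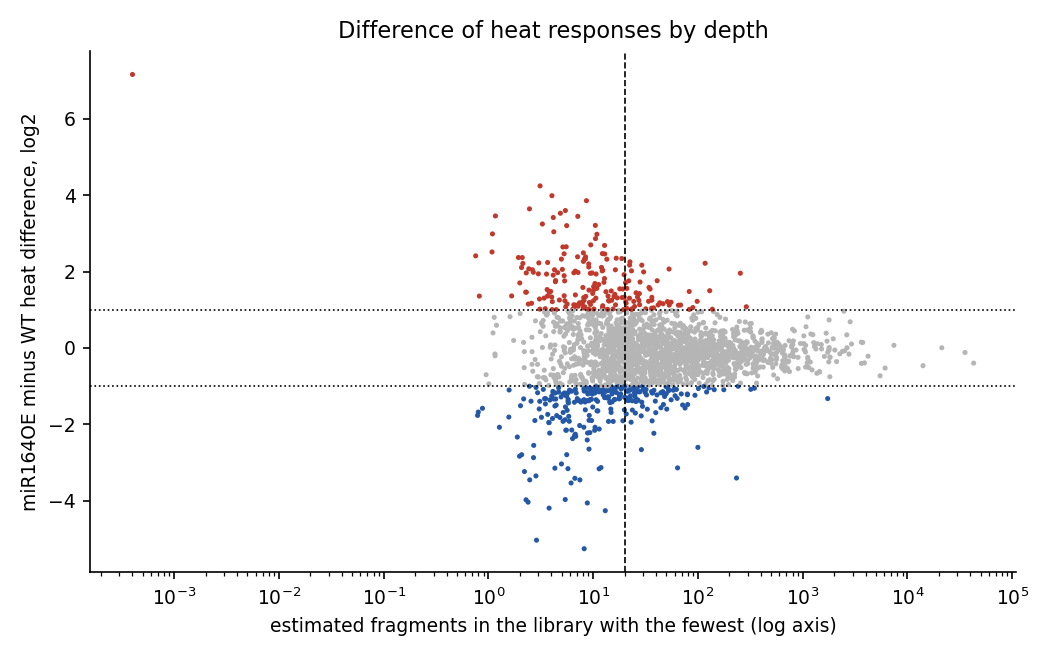
Difference of heat responses (y axis, log2) against the estimated number of fragments in the library with the fewest (x axis, log scale), 1 point per row with an annotated exon length. Dotted lines mark a difference of 1 and the dashed line 20 fragments; the points spread widely left of that line and narrow to its right.

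Just inside the row minimum, AT3G19613 had a difference of 2.23 and AT1G69587 of -1.31. Just outside it, PSRP5, a plastid ribosomal protein gene, had 1.36 and AT3G17130 -0.55.

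Another property of the rows bears on all that follows. Exons of 1523 of the 2202 rows overlapped a gene on the other strand, and 939 rows lay opposite a gene over at least 50% of their exon bases. For 74 rows averaging 1000 FPKM or more and lying at least 90% within a coding gene of the opposite strand, the gene's own row was far lower. Summed own rows came to 0.259% of the summed inner rows without heat and 0.562% with heat in WT, and to 0.241% and 0.644% in miR164OE. Heat over control, this share had a ratio of 2.17 in WT and 2.67 in miR164OE, a ratio of 1.23 between the genotypes or 0.30 on the log2 scale. This shift moved in the same direction as the higher differences of own rows given below, and its part in them was not tested. The sums are of FPKM, so the most abundant rows weigh most. Among the 74 is AT1G55673, opposite the photosystem gene PSAG, with 171972 FPKM in WT control and a difference of -0.47. In 195 pairs of rows on opposite strands that both passed the row minimum, the differences of heat responses had the same sign in 87, with r = -0.11 across pairs. In the 102 pairs with both rows well counted, 51 had the same sign and r was 0.07.

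The highest and lowest single rows had short exons or few fragments in the library with the fewest. Of the 10 highest and 10 lowest, 8 had under 300 exon bases, 16 overlapped a gene on the other strand and 0 were well counted. AT1G15405, a noncoding RNA of 292 exon bases, was highest at 7.16, with 71.6 then 0.00216 FPKM in WT and 7.72 then 16.2 in miR164OE. Its WT heat value corresponds to less than 1 fragment.

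Among coding genes with a symbol, AZI1 (chromosome 4, 7401087 to 7401951), which encodes a lipid-transfer-like protein known for priming of systemic defence, had the highest difference at 4.24. AZI1 had 36.8 then 8.02 FPKM in WT and 7.03 then 35.2 in miR164OE. The control of WT and the heat library of miR164OE were high and the other two low, so the genotypes moved in opposite directions. Estimated fragments were 3.11 in the smallest library, and the counting error was 1.19. SNE, an F-box gene of gibberellin signalling (chromosome 5, 19532270 to 19533390), followed among these with 17.5 then 34.3 FPKM in WT and 2.03 then 62.4 in miR164OE, a difference of 3.46 with a counting error of 1.46. Its miR164OE control value, about 1.17 fragments, stood apart from the other 3.

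Other high rows overlap a gene on the other strand. AT1G08667 lies wholly opposite NPR1, a receptor of the defence hormone salicylic acid, and had 368.6 then 50.2 FPKM in WT and 36.9 then 82.1 in miR164OE, a difference of 3.99. AT4G14120 overlaps XTH15, a gene of xyloglucan remodelling, over 21.7% of its exon bases and had 33.2 then 8.74 FPKM in WT and 15.4 then 66.5 in miR164OE, a difference of 3.86. AT3G46658 lies for the most part opposite the glycosyltransferase gene UGT76E12 and had 31.7 then 128.9 FPKM in WT and 2.15 then 155.1 in miR164OE, a difference of 3.64. In the last row the heat libraries were close, and the miR164OE control stood below the other 3. The remaining rows of the 10 highest were AT1G05553 (3.60), AT1G08047 (3.53), AT1G05023 (3.45) and AT1G04147 (3.41), all noncoding.

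At the other end, AT3G09345 had the lowest difference at -5.26, with 80.0 then 238 FPKM in WT and 576 then 43.4 in miR164OE. It was followed by AT1G04467 at -5.04 and AT3G01525, a row wholly opposite DRT102, at -4.27, all noncoding RNAs in which WT heat was above WT control and miR164OE heat below miR164OE control. A coding gene among the lowest was AT1G13609, annotated as a defensin-like gene, whose family is known for small secreted antimicrobial peptides (chromosome 1, 4662698 to 4663253). It was listed at 34.8 then 824 FPKM in WT and at 119.5 then 164.8 in miR164OE, with heat differences of 4.53 and 0.46 and a difference of -4.06. WT heat stood far above the other 3 libraries, at an estimated 232 fragments against 8.79 in WT control, and no gene overlaps it on the other strand. The counting error was 0.59, the smallest among the lowest 10 where it could be estimated. The others were AT1G04587 (-4.20), AT1G07697 (-4.04), AT1G78476 (-3.98), AT2G08595 (-3.97), AT2G09440 (-3.54) and AT3G08635 (-3.46).

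Rows with high FPKM gave a few more large differences, most of them on very short exons. AT2G09735, a noncoding row of 99 bases wholly opposite KIC, a calcium-binding protein gene, was listed at 27265 then 18431 FPKM in WT and 47672 then 3031 in miR164OE, a difference of -3.41. Its miR164OE heat value was well below the other 3. AT2G09395, of 96 bases, went the other way with 12389.8 then 2401 FPKM in WT and 15412 then 8430.05 in miR164OE, with heat differences of -2.37 and -0.87. AT4G26290, of 228 bases, had a difference of 1.99, and AT3G02115, of 172 bases, one of -2.61. With a mean of at least 200 FPKM, AT4G33310 (3.21), AT2G09325 (3.04), AT5G00905 (2.98) and AT3G01005 (2.47) were the other high rows, each under 300 exon bases, and AT1G26255 was the low row that was well counted.

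Among well counted rows, AT1G26255 had the lowest difference at -3.14, with a counting error of 0.25. It lies opposite AT1G26250 over 88.5% of its exon bases and had 178.8 then 219 FPKM in WT and 369.8 then 50.4 in miR164OE, so that miR164OE heat was low and the other 3 lay between 178.8 and 369.8. ATRPC14, encoding an RNA polymerase subunit, was next at -1.95. MLP165 (chromosome 1, 12936849 to 12937787), a gene of the major latex protein family with no overlap on the other strand, had 74.4 then 291.9 FPKM in WT and 135.9 then 153.6 in miR164OE. Its heat difference was 1.96 in WT and 0.18 in miR164OE, a difference of -1.78 with a counting error of 0.39. CIPK13, encoding a kinase that works with calcium sensors, had -1.61 and RPS13, a ribosomal protein gene, -1.63. These rows were named by their rank after the values were seen.

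At the upper end of the well counted rows, the noncoding AT1G06173 and AT2G08500 had 2.17 each, and coding genes followed. AT4G38300, a glycosyl hydrolase family 10 gene (chromosome 4, 17944556 to 17945491), had 204.8 then 91.7 FPKM in WT and 54.4 then 99.99 in miR164OE, a difference of 2.02 with a counting error of 0.44. Both heat libraries were close, and the controls differed. PRR2, which encodes pinoresinol reductase of lignan synthesis, had 104.9 then 41.6 FPKM in WT and 48.3 then 66.2 in miR164OE, a difference of 1.76. DREB2D (chromosome 1, 28335502 to 28336990), of the family of factors that bind dehydration response elements, had 364.8 then 98.7 FPKM in WT and 249 then 188.9 in miR164OE, a difference of 1.48 with a counting error of 0.23. Heat libraries were below controls in both genotypes, by 1.87 in WT and 0.40 in miR164OE on the log2 scale. CWLP, encoding a cell wall to plasma membrane linker protein, had 1.71 and lies opposite another gene over most of its exon bases. The row AT2G41231, opposite ORS1, here the gene AT2G41230 annotated as an ORGAN SIZE-like protein, over 65.2% of its bases, had 1755 then 726 FPKM in WT and 984 then 1581 in miR164OE, a difference of 1.96 with a counting error of 0.15. ORS1 itself had 1.44 then 0 FPKM in WT and 1.31 then 2.48 in miR164OE.

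**Figure D3:**
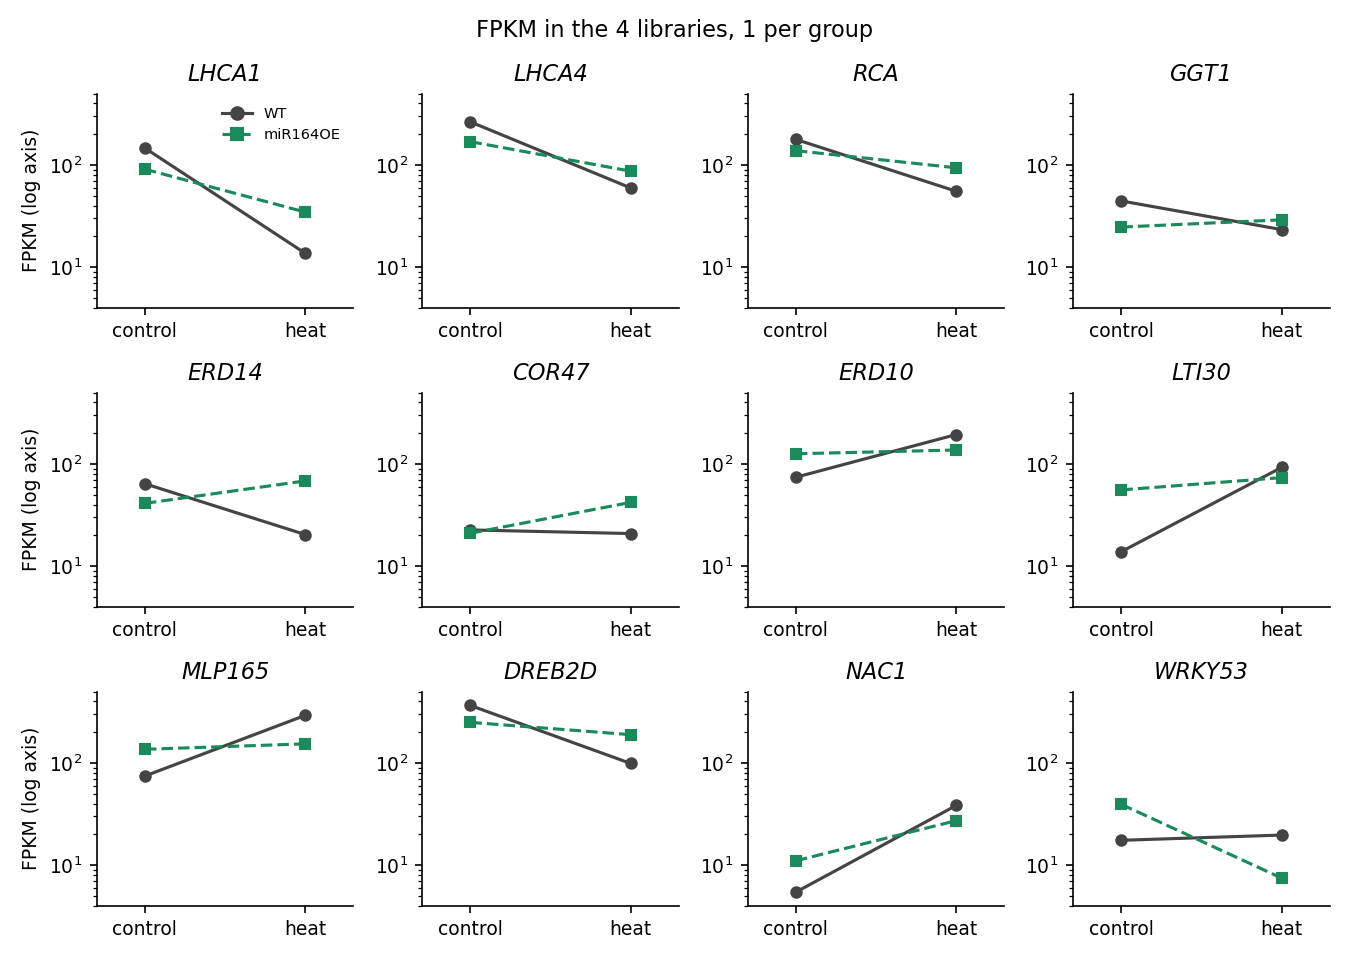
FPKM (y axis, log scale) in control and heat (x axis) for 12 named genes, 1 point per library, with WT as circles and solid lines and miR164OE as squares and dashed lines; there are no error bars because each group is 1 library. Lines cross or diverge where the heat differences differ, as for LTI30, which had 13.8 then 92.4 FPKM in WT and 55.6 then 73.3 in miR164OE.

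Most own rows of photosystem genes that passed the row minimum were lower after heat in WT. Photosystem and antenna genes, which capture light, had 23 of 47 list members among the 2202 rows. In WT, 16 of the 23 were at least 1 lower after heat and 1 at least 1 higher, against 19.9% and 20.5% of all rows. In miR164OE 11 were at least 1 lower and 0 at least 1 higher, against 22.3% and 16.4%. The difference of heat responses had a median of 0.49 against -0.16 over all rows, 16 of 23 values were above that overall median, 4 rows were at least 1 higher and 1 was at least 1 lower, where 8.95% and 12.4% of all rows were. Relative to the overall median, 8 were higher and 1 lower. Of the 23, 6 were well counted, with 1 at least 1 higher and 0 lower. The own-row share rose more from control to heat in miR164OE than in WT, by 0.30 on the log2 scale. That value stands beside this list and the next.

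LHCA1 and LHCA4 encode antenna proteins of photosystem I. LHCA1 (chromosome 3, 20339504 to 20341176) was listed at 146 then 13.6 FPKM in WT and at 90.7 then 34.5 in miR164OE, a difference of 1.96 with a counting error of 0.58. LHCA4 (chromosome 3, 17493343 to 17495033) was listed at 263.7 then 59.5 FPKM in WT and at 168.8 then 86.8 in miR164OE, a difference of 1.18 with a counting error of 0.32. In both genes WT held the highest value, in control, and the lowest, after heat. PSAD2, a subunit of photosystem I, had 60.1 then 9.26 FPKM in WT and 23.3 then 19.5 in miR164OE, a difference of 2.33 at about 4.97 fragments in the smallest library. PSBTN of photosystem II had 1.09 with a counting error of 0.78. PSBX, another subunit of photosystem II, went the other way at -1.47, with about 3.5 fragments in WT control. PSAD1, LHCB5, PSBO1 and LHCB1.5 lay between 0.93 and 0.98, PSAE1 was at -0.01 and PSAG at -0.97.

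Rows on the strand opposite photosystem genes passed the minimum for 3 genes. The row opposite PSAG was listed at 171972 then 52341.5 FPKM in WT and at 182750 then 40225 in miR164OE, a difference of -0.47, where the own row of PSAG had -0.97. Opposite LHCB1.5 the values were 158697 then 72862 in WT and 199133 then 69273.5 in miR164OE, a difference of -0.40, while the own row of LHCB1.5, with 178 then 29.6 in WT and 134.1 then 43.1 in miR164OE, had 0.93. Opposite PSAE1 the difference was -0.53, against -0.01 for its own row. The opposite rows held far more signal than the own rows. The sign changed between the strands for LHCB1.5, while for PSAG both strands were negative and the own row was the lower. The strand setting of the counting is not given, and which strand follows the photosystem transcripts was not tested. The own rows of this list and the next are therefore values of rows and may not measure the transcripts of those genes.

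Enzymes of carbon fixation and photorespiration, the salvage pathway for the oxygenation product of Rubisco, had 8 of 27 list members among the rows, with a median of 0.61. All but 1 of the 8 were above the overall median, 3 were at least 1 higher and 0 at least 1 lower, where 8.95% and 12.4% of all rows were. In WT 3 of the 8 were at least 1 lower after heat, and in miR164OE 0 were, with a median heat difference of -0.62 in WT and 0.16 in miR164OE. RCA, the activase that keeps Rubisco working (chromosome 2, 16570746 to 16573692), was listed at 177.6 then 55.2 FPKM in WT and at 137.7 then 93.7 in miR164OE. The decrease after heat was 1.67 in WT and 0.55 in miR164OE on the log2 scale, a difference of 1.12 with a counting error of 0.27. GGT1, a glutamate:glyoxylate aminotransferase (chromosome 1, 8268385 to 8272021), had 44.4 then 23.3 FPKM in WT and 24.6 then 28.98 in miR164OE, a difference of 1.13. AGT, an aminotransferase that also acts on glyoxylate, had 35.99 then 13.2 FPKM in WT and 22.6 then 17.3 in miR164OE, a difference of 1.02 that was 0.87 with a pseudocount of 5. The Rubisco small subunit genes RBCS3B and RBCS1A had 0.69 and 0.51, and GOX1 of photorespiration had -0.30. None of these 8 genes had a row on the other strand that passed the rule.

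**Figure D4:**
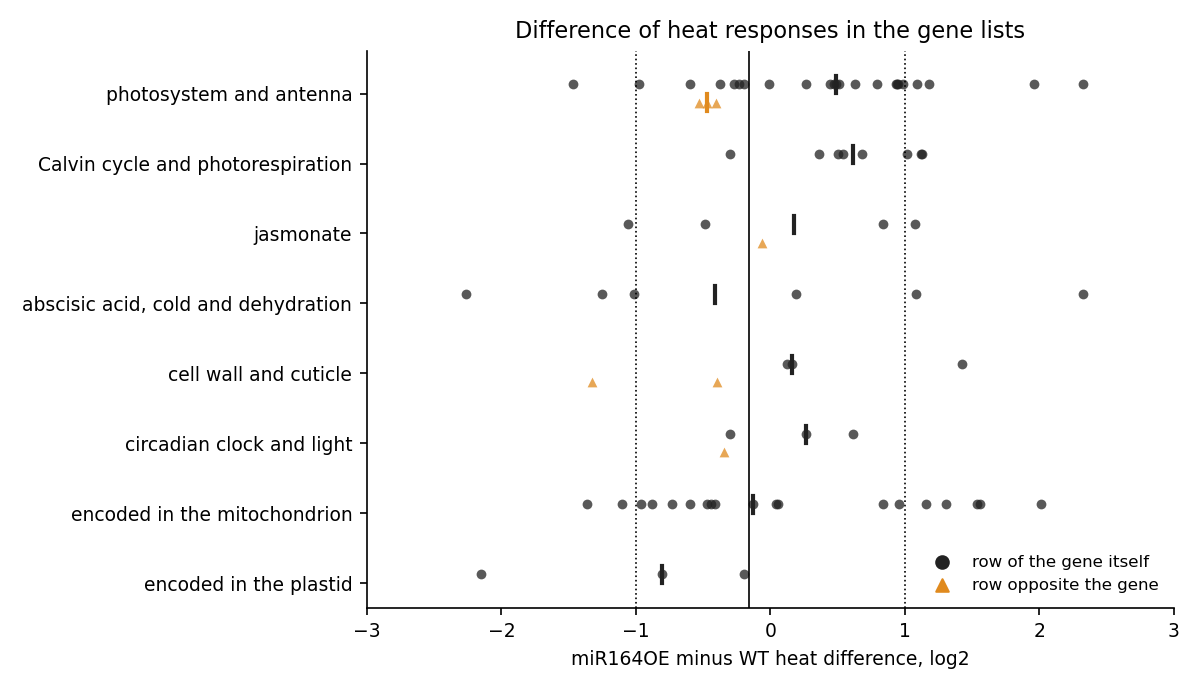
Difference of heat responses (x axis, log2) of the rows in each list with at least 3 own rows, as circles for a gene's own row and triangles for a row opposite the gene; short bars are medians of at least 3 rows. The solid line is the median of all 2202 rows at -0.16 and the dotted lines a difference of 1; 16 of 23 photosystem circles lie right of the solid line and the 3 triangles of that list left of it.

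Dehydrins, hydrophilic proteins made in drying or cold tissue, split in both directions. Of 24 genes of the abscisic acid, cold and dehydration list 6 were among the rows, with 2 at least 1 higher, 3 at least 1 lower (8.95% and 12.4% of all rows) and a median of -0.41. No gene on the other strand overlaps the 4 dehydrin rows. ERD14 (chromosome 1, 28586663 to 28587931) was listed at 63.9 then 20.3 FPKM in WT and at 41.1 then 68.1 in miR164OE. WT heat was the lowest and miR164OE heat the highest of these, a difference of 2.32 with a counting error of 0.57.

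LTI30 (chromosome 3, 18940643 to 18941611) had the reverse difference. It was listed at 13.8 then 92.4 FPKM in WT and at 55.6 then 73.3 in miR164OE, a difference of -2.26 with a counting error of 0.68. WT control, with about 6.75 fragments, stood below the other 3. The neighbouring genes ERD10 and COR47 on chromosome 1 also differed in direction. ERD10 (7087903 to 7089606), well counted, had 74.0 then 193.7 FPKM in WT and 125.6 then 136.7 in miR164OE, a difference of -1.25 with a counting error of 0.28. COR47 (7084409 to 7086873), also well counted, had 22.6 then 20.8 FPKM in WT and 20.9 then 42.0 in miR164OE, a difference of 1.08 with a counting error of 0.52. ERD10, ERD14 and COR47 are close relatives, so reads could be divided among them by the authors' counting, and their values are uncertain to that extent. COR413-PM1, a cold-regulated membrane protein gene, had -1.01, which was within 1 relative to the overall median, and COR15B had 0.19.

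The 250 bases before the annotated starts of ERD14 and LTI30 are shown because these dehydrins had the largest differences in opposite directions. They are from the RefSeq assembly TAIR10.1, for ERD14 chr1:28587932-28588181 on the minus strand and for LTI30 chr3:18940393-18940642 on the plus strand. Capitals mark the letters ACGTG, the core of the abscisic acid response element, and CCGAC, the core of the dehydration response element, on either strand.
ERD14: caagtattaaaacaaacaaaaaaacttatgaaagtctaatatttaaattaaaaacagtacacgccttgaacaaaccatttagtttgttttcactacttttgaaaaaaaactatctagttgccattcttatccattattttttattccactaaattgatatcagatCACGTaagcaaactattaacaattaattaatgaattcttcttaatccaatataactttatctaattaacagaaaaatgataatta
LTI30: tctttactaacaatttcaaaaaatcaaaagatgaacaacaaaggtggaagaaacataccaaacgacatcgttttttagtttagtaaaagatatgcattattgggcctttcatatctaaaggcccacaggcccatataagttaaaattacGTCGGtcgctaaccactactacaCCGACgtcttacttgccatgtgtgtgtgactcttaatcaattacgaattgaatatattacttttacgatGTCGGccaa

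The ERD14 window held 1 ACGTG and 0 CCGAC, and that of LTI30 held 0 ACGTG and 3 CCGAC, while those of COR47 and ERD10 held 0 of either. Of 27444 coding genes, 6288 (22.9%) held ACGTG and 3285 held CCGAC in the same window. Among 62 coding genes with no overlap on the other strand and a difference of at least 1, the shares were 21.0% and 8.06%. Among 73 such genes with a difference of at most -1 they were 20.5% and 6.85%, against 20.1% and 12.6% of all 627 such genes of any difference. The heat shock element GAANNTTC was held by 4.84% of the higher, 5.48% of the lower and 8.45% of the 627. For the core of the W box, TTGAC, these shares were 46.8%, 49.3% and 42.1%, and for CACG, a core bound by NAC factors, 46.8%, 42.5% and 42.6%. The letters CACG overlap ACGTG on the other strand, where it reads CACGT. These are counts of letters in short windows and describe no binding.

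Few heat shock genes passed the row minimum. The small heat shock proteins, chaperones that hold unfolding proteins, had 2 own rows of 14. HSP18.2 was listed at 25.1 then 64.9 FPKM in WT and at 24.4 then 113 in miR164OE, a difference of 0.83 with a counting error of 0.65, and HSP15.7 had 0.91 with a counting error of 1.01. Both heat libraries exceeded both controls in these genes. The well counted row opposite HSP17.4 had 306 then 8610.2 FPKM in WT and 287.4 then 9026 in miR164OE, heat differences of 4.81 and 4.97 that differed by 0.16. The row opposite HSFB2B, a heat shock factor of the repressing B class, had heat differences of 2.02 in both genotypes and a difference of 0.0048. At these depths the heat response of those 2 rows differed between the libraries by less than its counting error, 0.25 and 0.27.

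HSC70-1, the constitutive cytosolic HSP70 chaperone (chromosome 5, 553745 to 556623), was well counted and differed more. It was listed at 32.8 then 30.8 FPKM in WT and at 21.1 then 54.8 in miR164OE, a difference of 1.42 with a counting error of 0.44. The miR164OE heat library was the highest of the 4 and the miR164OE control the lowest. HSFC1, a heat shock factor of class C, had 172.9 then 89.4 FPKM in WT and 179.3 then 50.2 in miR164OE, a difference of -0.87, and the row opposite it had 70.3 then 70.8 in WT and 98.6 then 41.4 in miR164OE, a difference of -1.24. Both strands of HSFC1 were thus lowest in miR164OE heat. MBF1C, a coactivator needed for tolerance of heat, had -0.83 with a counting error of 0.64.

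Of the 16 genes of the antioxidant list, 2 passed the row minimum, and both had a difference past 1 (8.95% of all rows were that high). Both encode enzymes that remove hydrogen peroxide. APX1, the cytosolic ascorbate peroxidase (chromosome 1, 2437281 to 2439665), had 22.5 then 12.7 FPKM in WT and 15.1 then 32.0 in miR164OE, a difference of 1.82 with a counting error of 0.68. Its mean of 20.6 FPKM was just above the row minimum. The miR164OE heat value lifted it past that minimum and also raised its difference, so its place in the count of 2 is partly set by the minimum. CAT3, a catalase (chromosome 1, 7142972 to 7146540), had 30.3 then 28.3 FPKM in WT and 21.8 then 43.1 in miR164OE, a difference of 1.05 with a counting error of 0.39. In HSC70-1, APX1 and CAT3 alike, WT was lower after heat or nearly level and miR164OE was higher. No gene on the other strand overlaps these 3, so no second row was available for them.

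Of the 11 genes of the senescence list, 4 were listed at 0 in all 4 libraries and 1 passed the row minimum, so nothing is said of the list as a whole. The gene that passed was WRKY53, a transcription factor that promotes leaf senescence (chromosome 4, 12392370 to 12393982). It was listed at 17.5 then 19.6 FPKM in WT and at 39.2 then 7.45 in miR164OE, a difference of -2.41 with a counting error of 0.77. The WT values were close to each other and lay between the miR164OE values. Its mean was 20.95 FPKM, and the miR164OE control value both lifted it past the row minimum and lowered its difference. HMGB6 overlaps it on the other strand over 20.5% of its exon bases.

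Jasmonate genes, of a hormone of wounding and defence, had 4 rows of 26 with differences in both directions and a median of 0.18. JR1, a jasmonate-responsive lectin gene, was well counted, with 266 then 232 FPKM in WT and 526 then 220.3 in miR164OE. Its miR164OE control was the high value, and the difference of -1.06 was -0.89 under both other scalings. AOC2 and AOC4 encode allene oxide cyclase, an enzyme of jasmonate synthesis. AOC2 had a difference of 1.08, which was 0.80 with a pseudocount of 5, and AOC4 had 0.84. Their counting errors were 0.85 and 0.77. MYC2, the transcription factor of jasmonate signalling, had -0.49, and the row AT1G32630 opposite it had -0.06.

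Cell wall genes had 3 own rows of 19 and a median of 0.16. XTH24, which encodes a xyloglucan-modifying enzyme, had 29.1 then 17.58 FPKM in WT and 15.99 then 27.2 in miR164OE, a difference of 1.43 with a counting error of 0.76. PRP4, a proline-rich wall protein gene, had 0.16 and LTP1, a lipid transfer protein gene, 0.12. Opposite EXT3, an extensin gene of the wall, the well counted row AT1G21313 was listed at 7124 then 12553 FPKM in WT and at 18345 then 12867 in miR164OE. The heat libraries were alike there and the control was higher in miR164OE, a difference of -1.33 with a counting error of 0.05. The own row of EXT3, under the row minimum, had 9.86 then 12.2 FPKM in WT and 4.44 then 24.6 in miR164OE, a difference of 1.95 in the other direction. MT3, a metallothionein gene that binds metal ions, gave a similar contrast, with 2.35 for its own row and -2.67 for AT3G03105, a row of 278 bases that overlaps it in part.

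Clock and light genes had 3 rows of 19 within 1 in either direction, COL2 at -0.30, COL1 at 0.27 and LUX at 0.61, all well counted. COL1 lies wholly opposite AT5G15845. The row AT5G17305, of 225 exon bases and opposite RVE1 of the same list, had -0.35. A row opposite SPL3, a factor of the change from the juvenile to the adult phase, had 309.8 then 45.2 FPKM in WT and 283.6 then 18.4 in miR164OE. Its difference was -1.12 with a counting error of 0.51, and -0.96 relative to the overall median. Rows opposite FLC (0.47), F3H (-0.70), RRTF1 (0.63) and UGT74C1 (0.25) and the own row of CYP79B3 (-0.20) were within 1. The lists of chlorophyll metabolism, folding in the endoplasmic reticulum and auxin had no row of either kind.

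Of 152 rows encoded in the mitochondrion, 82 were listed at 0 in all 4 libraries and 19 passed the row minimum. That minimum is a mean over control and heat, so a row can pass by its heat values alone. RRN26 did so, with 1.26 then 48.7 FPKM in WT and 1.25 then 95.0 in miR164OE. The counts after heat thus describe rows partly selected for high heat values. Of the 19 rows, 18 were at least 1 higher after heat in WT and 19 in miR164OE. Their median heat difference was 4.46 in WT and 4.57 in miR164OE, and the difference of heat responses had a median of -0.13, close to that of all rows. Within the 19, 5 rows (26.3%) were at least 1 higher and 2 (10.5%) at least 1 lower, against 8.95% and 12.4% of all rows. The 3 largest differences were those of ORF240A, COX1 and ORF159. COX1, a subunit of cytochrome c oxidase, had 9.91 then 93.4 FPKM in WT and 3.71 then 117 in miR164OE, a difference of 1.54. ORF240A had 39.0 then 268 in WT and 11.8 then 344.5 in miR164OE, a difference of 2.01, and ORF159 had 1.56. In each of the 3, the miR164OE control was the lowest value and miR164OE heat the highest. ORF107A, with the most signal of the 19, had 563 then 16209 FPKM in WT and 742 then 19565.5 in miR164OE, a difference of -0.13.

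Of 133 rows encoded in the plastid, 81 were listed at 0 in all 4 libraries. The 3 that passed the row minimum had a median of -0.80. RPS4, a plastid ribosomal protein gene, had 24.7 then 74.8 FPKM in WT and 11.5 then 7.28 in miR164OE, a difference of -2.15, with WT heat as the high value. NDHG, of the plastid NADH dehydrogenase-like complex, had -0.80 and RPS18 -0.20. Whether reads of these genomes were retained alike in the 4 libraries is not given in the sources used here.

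AZI1 lies in a row of related genes for lipid-transfer-like proteins on chromosome 4, which were looked up after its value was seen. Its neighbour EARLI1 was listed at 3.54 then 7.09 FPKM in WT and at 0 then 36.7 in miR164OE, outside the 2202 rows because of the 0. AT4G12495 lies wholly inside AT4G12490 on the other strand and had 1888 then 5998 FPKM in WT and 812 then 12002 in miR164OE, a difference of 2.22 on 282 exon bases. Further along, AT4G12543, opposite AIR1B, had 53.6 then 775 FPKM in WT and 772 then 2518 in miR164OE, a difference of -2.13 with a counting error of 0.46. AT4G12555, opposite AIR1, had 204 then 859 FPKM in WT and 1308 then 4030 in miR164OE, a difference of -0.45. In the last 2 rows miR164OE was above WT in control and after heat, and the heat difference was smaller in miR164OE. AT4G12530, whose own row holds signal, had 0 then 73.3 FPKM in WT and 3.54 then 48.2 in miR164OE, a higher heat value in WT and thus against the direction of AZI1. AT4G12490 had 0 then 2.33 FPKM in WT and 0 in both miR164OE libraries. The near-identical genes of this cluster can share reads, and their own rows AT4G12500, AT4G12510, AT4G12520, AIR1B and AIR1 were listed at 0 in all 4 libraries.

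Other families with at least 8 rows of the same product name were counted, a minimum chosen after the rows had been seen. Over all rows 8.95% were higher and 12.4% lower, with a median of -0.16. Of all 73 rows with a kinase product, 0 were at least 1 higher and 8 (11.0%) at least 1 lower, with a median of -0.32, and of the 62 well counted ones 4 (6.45%) were lower, near the 5.98% of all well counted rows. Within them, 6 of the 19 rows named as protein kinase superfamily proteins were lower, with a median of -0.66. Of 24 RING/U-box proteins, a family of ubiquitin ligases, 0 were higher and 4 lower, with a median of -0.22. Of 8 lipid-transfer and seed storage proteins, 3 were higher and 4 lower. LRR kinases (12 rows) and acyl-transferases of the HXXXD type (8 rows) had 0 in either direction.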

How the data were processed

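RNA of whole seedlings was sequenced in 4 libraries, 1 for each genotype with and without heat. Libraries were made with a strand-specific SureSelect kit, per the labels. The authors deposited 1 table of FPKM values, and base calling with bcl2fastq 2.1.7, TopHat and Cufflinks were used with the build TAIR10, per the submitters' processing notes. The sources used here give no version for the last pair, no strand setting, no annotation and no sequencing depth.

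Row codes were matched to the TAIR10.1 annotation for exon lengths, strands, products and starts, and 2180 of the 2202 rows had an exon length; start and end matched for 22475 of 22477 loci holding a single gene. Differences were taken on log2(FPKM + 1) of the deposited values and called at 1, or 2-fold, without a test, since each group is 1 library. A fold on this scale understates the change of low rows. Fragments were estimated as FPKM times exon length, divided by the most frequent value among genes with no overlap, 800 to 2500 exon bases and under 6 FPKM. Counting errors follow from them and cover neither biological nor other technical spread.

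The 2202 rows and 21 gene lists (2 of them the rows encoded in the mitochondrion and the plastid) were chosen with earlier results of these data known. Named were the 10 highest and 10 lowest rows, the 5 highest and lowest at a mean of at least 200 FPKM, the 4 clearest opposite responses in each direction, up to 3 rows per list with at least 3 rows, the 3 rows of highest mean past 1 in each direction, and miR164 genes. Other named genes, the well counted set (a minimum of 15 fragments was looked at before 20), the way of finding the most frequent fragment value, the cluster on chromosome 4, the promoters (a window of other length was looked at first), the 5 motifs and the product families were chosen after values were seen. Iron deficiency genes and other product words were looked at too and are not used here. Lists were read by own rows and by rows opposite a list gene over at least 100 bases and 50% of the row. Alternatives were other pseudocounts, minimums, scalings and strand subsets. The calculation was tested on simulated data. Python 3.11.15, numpy 2.4.6, pandas 2.3.3, SciPy 1.17.1 and matplotlib 3.10.9 were used.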

Additional observations from a re-analysis of the deposited data

Results flagged for a closer look

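In 13 rows named by the rule, the heat differences of the genotypes had opposite signs and each was past 1. The single library pair of miR164OE thus moved against the single pair of WT. With 1 library per group the difference between the genotypes was not tested. Higher in miR164OE were AZI1 (4.24), AT1G08667 (3.99), AT4G14120 (3.86), AT1G08047 (3.53), AT5G00905 (2.98) and SCRL7 (2.86). Lower were AT3G09345 (-5.26), AT1G04467 (-5.04), AT3G01525 (-4.27), AT1G04587 (-4.20), AT1G07697 (-4.04), AT2G09440 (-3.54) and AT3G08635 (-3.46). In all 2202 rows there were 8 of the first kind and 14 of the second, and 0 of them were well counted. AZI1 and SCRL7 are the protein-coding genes with symbols among the 13.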

How the results depend on the processing

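No paired analysis was possible because each group is 1 library and the labels number no replicates. The counts of 197 higher and 272 lower rows and the median of -0.16 stayed within 1.5 times or 0.1 with a pseudocount of 0.1 or 5, without a span minimum, with a span of at least 1000 bases and without organelle rows. Rescaling of nuclear rows and median ratio scaling moved the median to -0.0012 and 0.0026. A mean of at least 10 FPKM gave 340 higher and 423 lower rows, one of at least 100 FPKM 80 and 76, and keeping rows listed at 0 gave 298 higher. Rows with no overlap on the other strand held 68 higher and 77 lower, rows with an overlap 124 higher, and well counted rows, an alternative added after the values were seen, 37 and 75, each out of fewer rows. Of 60 rows named by the rule, 59 kept their side of 1 under each scaling, 60 with a pseudocount of 0.1 and 58 with 5. Medians of all 9 lists described moved by more than 0.1 with each scaling, with the median of all rows. Depth limits single rows: the median counting error was 0.43 over all rows that allowed one.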
